A study of Homo sapiens with 10 samples.

Results

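The genes described here encode the factors that start translation, measured in clones of a human lymphoma line with and without the R475C change in the RNA helicase DDX3X. They were taken as the protein-coding rows whose GENCODE 29 name starts with EIF1 to EIF6, without EIF1AY, the EIF2AK kinases and EIF4EBP1, plus PABPC1, PABPC4, DENR, MCTS1, PDCD4 and MKNK1. This gave 56 genes of the 58721 rows in the count table. Of these, 54 had enough counts to be tested, among 17045 tested genes in all. EIF3CL and EIF4E1B were left out by the filter on low counts, at 0.0640 and 0 CPM on average in wild-type (CPM are counts scaled to a common library size).

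The cells were single-cell clones of the line labelled U2392. Cas9, a guide RNA and a double-stranded template were delivered together, and the template carried either the R475C change or, in control clones, the unchanged residue. Silent changes were shared by both templates, in the PAM and to create a SpeI site, so the controls had been edited and cloned too. Poly(A) RNA of 6 wild-type and 4 R475C samples was sequenced. Which samples are separate clones is not stated in the labels. The p-values therefore reflect the spread among the 10 samples alone, and part of it may be technical. In these bulk samples fewer cells of a type and less RNA per cell cannot be told apart.

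Initiation begins when eIF2, carrying the initiator tRNA and GTP, joins the small ribosomal subunit together with eIF1, eIF1A, eIF3 and eIF5. The mRNA is brought in by eIF4F, which consists of the cap-binding protein eIF4E, the scaffold eIF4G and the DEAD-box helicase eIF4A, and the poly(A)-binding protein contacts eIF4G from the other end of the message. eIF2B recharges eIF2 with GTP, and eIF5B brings in the large subunit. DDX3X is a related DEAD-box helicase that is known to act on messages with structured leaders during this process.

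Many messages of the translation machinery start with a C followed by a run of pyrimidines, a feature known as the 5′ terminal oligopyrimidine motif, through which mTOR and LARP1 control their translation. The RefSeq start sites (GRCh38.p14) were searched on the transcribed strand for a C at the first base followed by at least 4 more C or T. An entry was found for 47 of the 56 genes. EIF2S2, EIF3A, EIF3CL, EIF3E, EIF3G, EIF3H, EIF3L, PABPC1 and PABPC4 had none, so their starts were not searched. Of the 47 genes, 10 (21.3%) had such a start, against 1404 of 27305 gene symbols (5.14%). All 10 are shown, with EIF4A1 and EIF4G3 for contrast, because the motif is at the annotated start of EIF4A2 and not at that of its paralog EIF4A1. Each line gives 10 bases before and 20 bases from the annotated start, with the pyrimidine run in capitals.
EIF2A (chr3:150546777-150546806, plus strand): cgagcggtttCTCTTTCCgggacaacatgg
EIF2D (chr1:206612446-206612475, minus strand): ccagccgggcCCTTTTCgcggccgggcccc
EIF2S3 (chrX:24054946-24054975, plus strand): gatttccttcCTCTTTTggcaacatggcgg
EIF2S3B (chr12:10505880-10505909, plus strand): gactttcttcCTCTTTTggcaacatggcgg
EIF3D (chr22:36529147-36529176, minus strand): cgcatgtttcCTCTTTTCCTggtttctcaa
EIF3F (chr11:7987327-7987356, plus strand): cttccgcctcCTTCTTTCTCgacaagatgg
EIF3K (chr19:38619178-38619207, plus strand): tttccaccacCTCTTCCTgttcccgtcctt
EIF3M (chr11:32583821-32583850, plus strand): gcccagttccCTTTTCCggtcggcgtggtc
EIF4A2 (chr3:186783567-186783596, plus strand): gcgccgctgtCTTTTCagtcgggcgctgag
EIF4B (chr12:53006446-53006475, plus strand): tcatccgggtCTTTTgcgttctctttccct
EIF4A1 (chr17:7572815-7572844, plus strand): ggcactccgccctagtttctaaggatcatg
EIF4G3 (chr1:21176878-21176907, minus strand): ttttccgagcagccgtcctgccggactgct
The 10 genes with the motif had a median log2 fold change of -0.10 between R475C and wild-type, from -0.14 to 0.34, and the 36 tested genes with an entry and no such start had a median of -0.01. These are RNA levels, which do not measure how well a message is translated.

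Total counts per sample ran from 8928539 to 53779005, the lowest in R475C replicate 4. DDX3X itself rose, from 421 ± 70.5 CPM in wild-type to 932 ± 126 CPM in R475C (mean ± SD, with 6 wild-type and 4 R475C samples throughout; log2 fold change 1.15, SE 0.13, adjusted p = 0.00194 by edgeR). Where a pair of values has no group beside it, R475C comes first. The B-cell markers MS4A1 and CD79A were at 1360 to 2170 and 481 to 700 CPM over all samples. In any sample the T-cell markers summed to at most 1.66 CPM and the myeloid markers to at most 1.05 CPM. Of 6 epithelial and fibroblast markers EPCAM was at 16.4 to 37.2 CPM, KRT18 at 0 in every sample and KRT8 at a median of 0. The fibroblast markers DCN, COL1A1 and LUM had medians of 3.04, 1.09 and 0 CPM and reached 14.8, 3.71 and 2.93 CPM. The summed level of the 6 markers was 35.1 to 39 CPM in wild-type and 24.3 to 29.1 CPM in R475C. Their part in the results was not tested. By correlation of log2 CPM over all tested genes the samples fell into a pair of sets that each hold both genotypes. Set 1 held replicates 1 and 4 of wild-type and 1 and 3 of R475C, and set 2 held the other 6 samples. The labels name no such sets, so whether they are clones, cultures or batches is not known, and results are given within them where the sets moved a value.

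The question of the comparison was which initiation factor transcripts differ in level between R475C and wild-type clones. The scaffold gene EIF4G3 was the single member to pass the quasi-likelihood test of edgeR at an adjusted p under 0.05 (Benjamini-Hochberg, over all tested genes). It rose 1.34-fold, so 1 of 54 members rose, none fell and 53 did not pass. Over all tested genes 2.46% passed, 1.31% as higher and 1.15% as lower, so the members' share of 1.85% was near the background. The median log2 fold change of the members was -0.04, beside 0.00 over all tested genes, and 24 members lay above 0 and 30 below. At an unadjusted p under 0.05, 5 members were higher and 2 lower, or 13%, against 17.3% of all tested genes. DESeq2 also called EIF4G3 alone among the members, with 6.78% of all genes called. For 42 of the 54 members the 95% interval of the fold change lay wholly within 1.5-fold in either direction (0.585 on the log2 scale), against 46.3% of all tested genes.

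**Figure D1:**
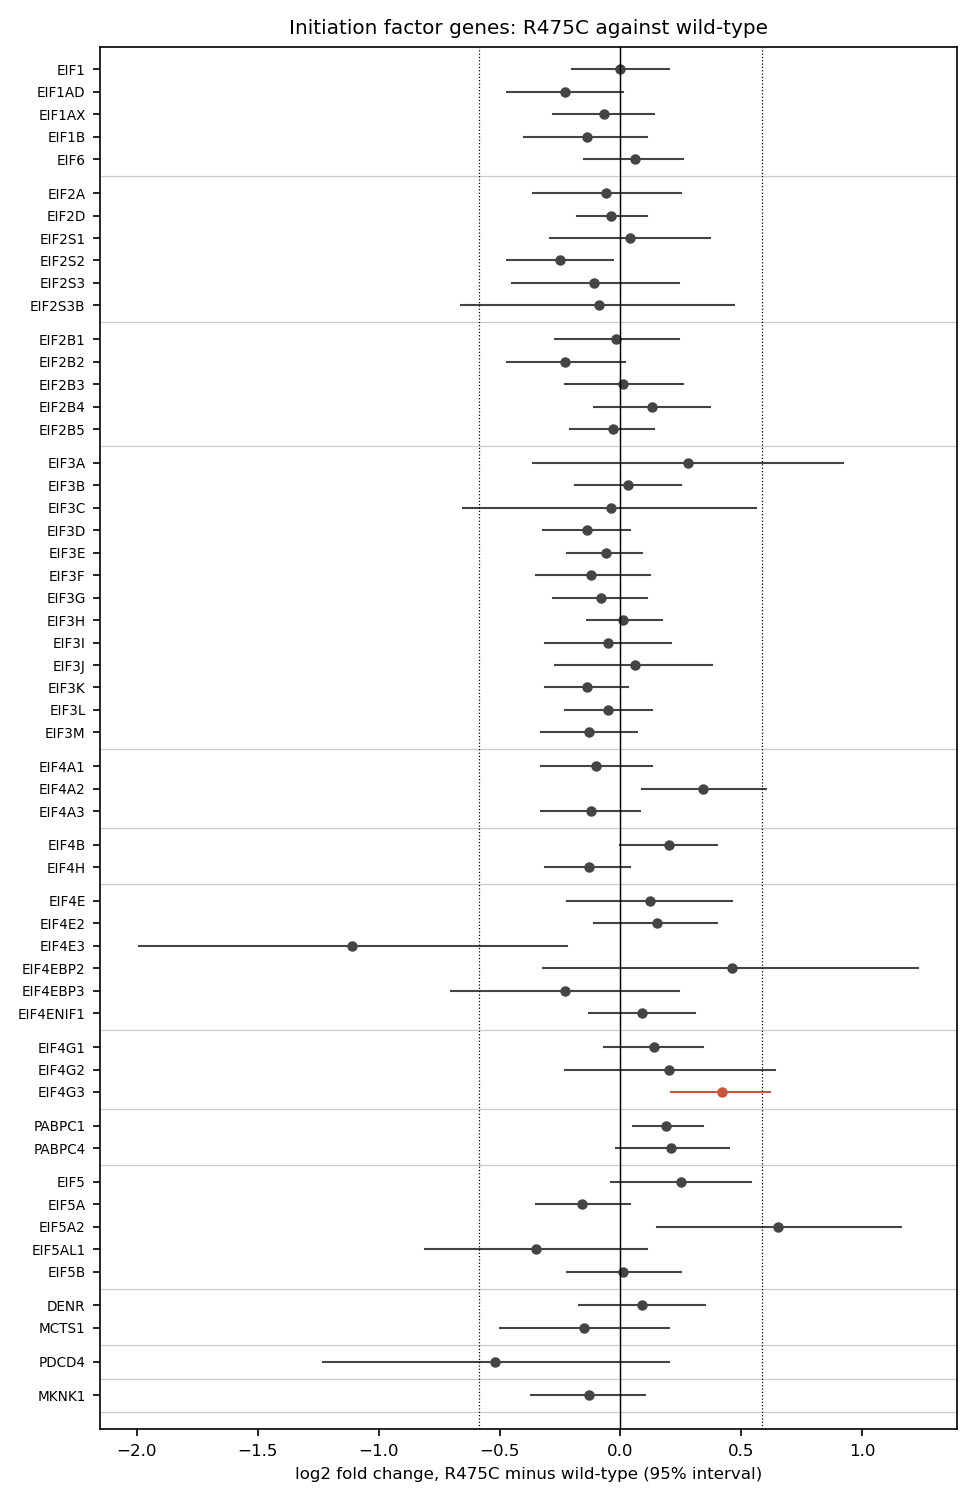
Log2 fold change (R475C minus wild-type, horizontal axis) with its 95% interval for the 54 tested initiation factor genes, grouped by complex. EIF4G3, in red, is the 1 gene past the test; dotted lines mark 1.5-fold in either direction, and the intervals of 42 genes stay between them.

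eIF4G is the scaffold on which the cap-binding protein, the helicase and eIF3 assemble. EIF4G3 (ENSG00000075151.20; chromosome 1, 20806292 to 21176888, minus strand, GRCh38), which encodes eIF4GII, was at 145.7, 158.6, 166.1 and 196.9 CPM in R475C replicates 1 to 4. In wild-type it ran from 117.8 to 139.3 CPM with a median of 120. Every R475C sample lay above every wild-type sample. The log2 fold change was 0.42 (SE 0.09, 95% interval 0.21 to 0.62, adjusted p = 0.0414 by edgeR), from 125 ± 9.05 CPM in wild-type to 167 ± 21.7 CPM in R475C. Among the 210 ways to assign the genotypes to samples, an exact permutation test (two-sided) reached its smallest possible p, 0.00476. This p largely restates the separation of the groups and is not adjusted for the number of genes. PABPC1 had the same value. The call was close to the threshold: of the 10 fits that each left out 1 sample it held in 2, those without wild-type replicate 1 and without R475C replicate 1. It was lost without any 1 of the other 8, with adjusted p between 0.0545 and 0.108, while the log2 fold change stayed between 0.32 and 0.48 over all 10 fits. It was also lost with library totals in place of scaling factors (adjusted p = 0.0578) and with no low-count filter (adjusted p = 0.0592). No 50-base window of its longest coding transcript occurs in another annotated gene.

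The 2 other scaffold genes did not pass. EIF4G1, the main eIF4G, was at 1313, 1207, 1098 and 1107 CPM in R475C and from 970.7 to 1227 CPM (median 1058) in wild-type. The groups overlapped, with a log2 fold change of 0.14 (95% interval -0.07 to 0.34, adjusted p = 0.496 by edgeR). EIF4G2, whose protein lacks the eIF4E-binding site and serves cap-independent initiation, was at 988.6, 858.9, 921.9 and 629.5 CPM in R475C and from 534.6 to 1163 CPM (median 667.5) in wild-type. Its highest value was in wild-type replicate 1, and the interval of its difference ran from -0.23 to 0.64. The ratio of EIF4G3 to EIF4G1 within a sample was 0.0974 to 0.143 in wild-type and 0.111 to 0.178 in R475C, so it overlapped between the groups. Per kilobase of exon in the basic annotation, wild-type levels were 166 ± 17.7 CPM for EIF4G1, 165 ± 49.8 for EIF4G2 and 17.9 ± 1.30 for EIF4G3. EIF4G1 and EIF4G2 did not differ beyond their spread there, and EIF4G3 was the lowest also over all annotated exons (13.0 against 130 and 85.4 CPM per kilobase).

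The helicase eIF4A unwinds the leader of the message, and its genes EIF4A1 and EIF4A2 encode close paralogs. EIF4A2 was at 1038, 858.9, 902.1 and 691.5 CPM in R475C and from 625.9 to 809.5 CPM (median 647.2) in wild-type. R475C replicate 4 lay among the wild-type samples and the other R475C samples above all of them. The log2 fold change was 0.34 (SE 0.12, 95% interval 0.09 to 0.60), which did not pass (adjusted p = 0.150 by edgeR). EIF4A1 was at 594.4, 555.2, 519.7 and 463.3 CPM in R475C and from 503.9 to 640.1 CPM (median 571.1) in wild-type. Its groups overlapped, with a log2 fold change of -0.10 (95% interval -0.33 to 0.13, adjusted p = 0.677 by edgeR). The ratio of EIF4A2 to EIF4A1 within a sample was 1.01, 1.04, 1.24, 1.24, 1.26 and 1.49 in wild-type and 1.49, 1.55, 1.74 and 1.75 in R475C. Only wild-type replicate 4 came up to the R475C values, and this ratio is given as a description with no test. EIF4A3, a core protein of the exon junction complex rather than an initiation helicase, was at 197 ± 19.7 in R475C and 215 ± 19.1 CPM in wild-type.

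The EIF4A1 value has a limit set by the annotation. SENP3-EIF4A1, a read-through gene from SENP3 into EIF4A1 (chromosome 17), shares 1586 bases of exon with EIF4A1, and a processed transcript, AC016876.2, shares 2186. These rows held 594.3 and 546.5 CPM on average against 557 for EIF4A1, and all 50-base windows of EIF4A1's longest coding transcript (100%) occur in another annotated gene. The ratio of SENP3-EIF4A1 to EIF4A1 was 1.04 to 1.08 in wild-type and 1.05 to 1.09 in R475C, so the rows moved together in every sample. For SENP3-EIF4A1 the log2 fold change was -0.09 (adjusted p = 0.724 by edgeR). With the counts of EIF4A1 and SENP3-EIF4A1 added into 1 row the log2 fold change was again -0.10. Because the ratio of the rows hardly varied, the sum had to give nearly this value and is no separate check. Reads of the read-through transcript and of EIF4A1 cannot be told apart in these counts.

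eIF4B and eIF4H are RNA-binding cofactors of eIF4A. EIF4B was at 387.7, 450, 414 and 434.8 CPM in R475C and from 293.7 to 394.9 CPM (median 377.7) in wild-type. R475C replicate 1 lay within the wild-type range and the other R475C samples above it, and the log2 fold change of 0.20 (SE 0.09) did not pass (adjusted p = 0.283 by edgeR). Of the 50-base windows of EIF4B, 37.1% occur in other genes, 22.5% in EIF4BP6. EIF4H was at 191 ± 20.2 in R475C and 210 ± 5.24 CPM in wild-type and did not pass either. PDCD4, an inhibitor that holds eIF4A away from eIF4G, is described with the sets of samples.

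The cap-binding protein was at a low count. EIF4E was at 25.41, 28.24, 28.83 and 23.63 CPM in R475C and from 16.14 to 31.84 CPM (median 24.4) in wild-type. The groups overlapped, with a log2 fold change of 0.12 (95% interval -0.22 to 0.46). EIF4E2, which binds the cap and is known as a repressor of selected messages, was at 34.2 ± 3.33 and 31.0 ± 4.05 CPM. EIF4E3, an atypical cap-binding paralog, was at 1.962, 1.229, 2.868 and 4.749 CPM in R475C and from 2.718 to 8.506 CPM (median 5.598) in wild-type. R475C replicates 3 and 4 lay within the wild-type range. Its log2 fold change of -1.11 (SE 0.41) was the lowest of the members and did not pass (adjusted p = 0.177 by edgeR). The locus AC097634.4, which shares 738 bases of exon with EIF4E3 on the same strand, was at 51.2 ± 8.78 in R475C and 44.2 ± 3.8 CPM in wild-type. The eIF4E-binding repressor EIF4EBP3 shares 507 of its 691 exon bases with the read-through gene ANKHD1-EIF4EBP3, so its 7.78 ± 2.91 and 9.02 ± 1.36 CPM cannot be assigned to it alone. EIF4ENIF1, which carries eIF4E into the nucleus, was at 56.1 ± 4.48 and 52.7 ± 6.20 CPM. MKNK1, the kinase that phosphorylates eIF4E, was at 22.31, 21.44, 23.07 and 18.88 CPM in R475C and from 20.88 to 25.92 CPM in wild-type, overlapping (log2 fold change -0.13, 95% interval -0.37 to 0.10).

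The poly(A)-binding proteins close the loop between the ends of the message. PABPC1 was the most abundant member per length in wild-type, at 590 ± 25.7 CPM per kilobase of exon in the basic annotation and 433 over all annotated exons. On the first scale EIF4A2 (358 ± 40.7) and EIF4A1 (326 ± 39.3) came next and did not differ beyond their spread. PABPC1 was at 2367, 2499, 2199 and 2323 CPM in R475C and from 1904 to 2150 CPM (median 2056) in wild-type. Every R475C sample lay above every wild-type sample, which was also true of EIF4G3 and of no other member. These 2 of 54 members (3.7%) compare with 6.11% of all tested genes whose groups did not overlap, 3.19% as higher. The log2 fold change of PABPC1 was 0.19 (SE 0.07, 95% interval 0.05 to 0.34), which did not pass edgeR's test (adjusted p = 0.154). PABPC4 was at 349 ± 41.5 CPM against 301 ± 35.9 CPM, with overlap and an interval from -0.02 to 0.45.

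**Figure D2:**
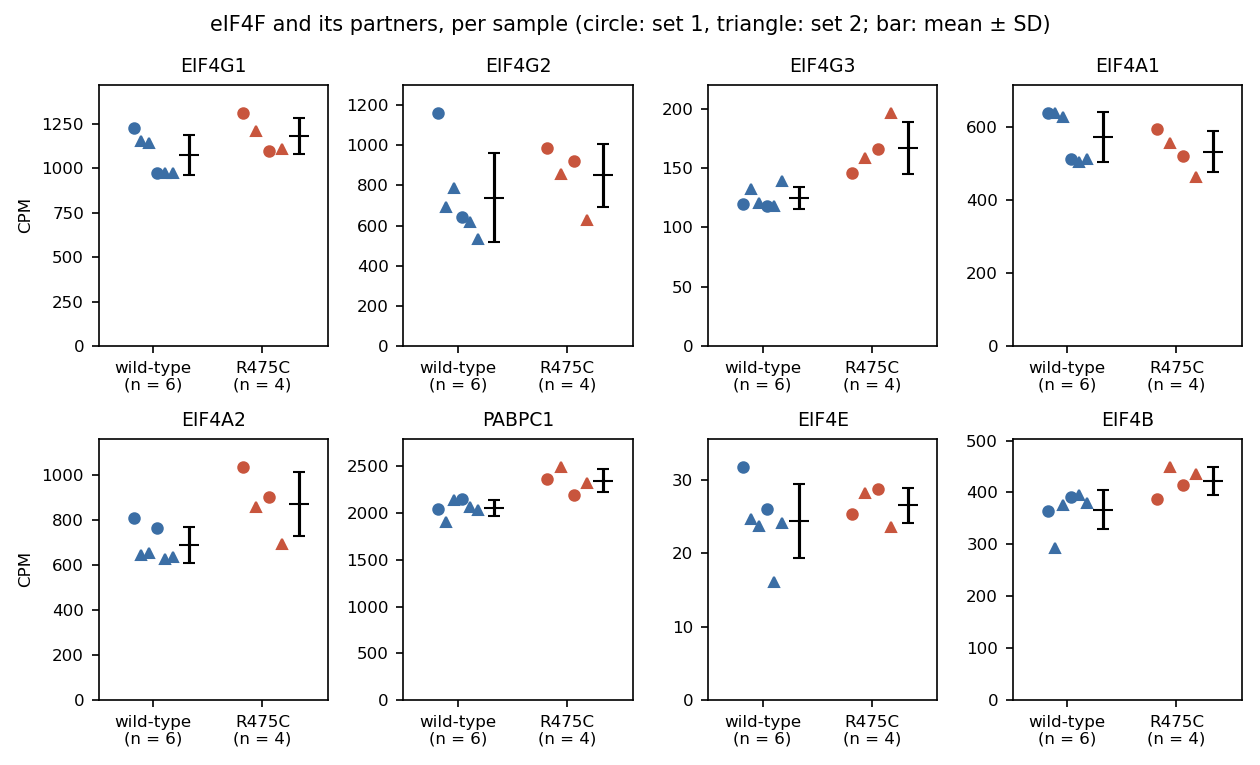
CPM per sample (vertical axis, from 0) for eIF4F genes and partners in wild-type (blue, 6 samples) and R475C (red, 4 samples), with circles for set 1, triangles for set 2 and the mean ± SD beside them. The R475C points lie wholly above the wild-type points for EIF4G3 and PABPC1 and overlap with them in the other panels.

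eIF2 delivers the initiator tRNA. None of its 6 tested genes passed in the comparison of all samples, and 1 had an unadjusted p under 0.05. EIF2S2, the beta subunit, was at 116.8, 100.6, 115 and 92.32 CPM in R475C and from 107.7 to 141.8 CPM (median 123.8) in wild-type. R475C replicates 1 and 3 lay within the wild-type range and replicates 2 and 4 below it, and the log2 fold change was -0.25 (SE 0.10, adjusted p = 0.222 by edgeR). Of the 50-base windows of EIF2S2, 22.6% occur in other genes, mostly EIF2S2P4. EIF2S1, the alpha subunit that stress kinases phosphorylate, was at 157 ± 23.1 in R475C and 153 ± 31.9 CPM in wild-type. EIF2S3, the gamma subunit on chromosome X, was at 251 ± 30.8 and 270 ± 59.6 CPM. EIF2S3B, a copy of EIF2S3 on chromosome 12 with 25.5% of its 50-base windows in EIF2S3, was at 4.88 ± 0.903 and 5.22 ± 1.67 CPM. EIF2A and EIF2D, which can deliver tRNA without eIF2, had intervals of -0.36 to 0.25 and -0.18 to 0.11.

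eIF2B is the exchange factor that recharges eIF2. None of its 5 subunit genes passed, their log2 fold changes ran from -0.23 to 0.13, and all 5 intervals lay within 1.5-fold. EIF2B2, the beta subunit, had the smallest p, at 33.41, 31.25, 28.35 and 28.93 CPM in R475C and from 30.2 to 42.09 CPM (median 34.63) in wild-type. R475C replicates 3 and 4 lay below the wild-type samples and the others among them (interval -0.47 to 0.02, adjusted p = 0.329 by edgeR). EIF2B5, the catalytic epsilon subunit, was at 182 ± 12.8 in R475C and 186 ± 13.8 CPM in wild-type.

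eIF3 is the largest initiation factor, a complex that holds the small subunit and the message together. None of its 13 tested genes passed, and none reached an unadjusted p under 0.05. Their log2 fold changes ran from -0.14 to 0.28 with a median of -0.05, and 11 of the 13 intervals lay within 1.5-fold. EIF3K had the smallest p, at 221, 201.2, 203.9 and 193.7 CPM in R475C and from 197.8 to 245.5 CPM (median 228.2) in wild-type. R475C replicate 4 lay below the wild-type samples and the others among them (log2 fold change -0.14, interval -0.31 to 0.03). EIF3B, a core subunit, was at 530 ± 74.9 and 520 ± 42.8 CPM, and EIF3H was at 236 ± 14.4 and 233 ± 9.65 CPM. EIF3C, another core subunit, stood apart from its partners in level, at 3.89 ± 1.21 in R475C and 4.06 ± 1.20 CPM in wild-type. Of the 50-base windows of its longest coding transcript 96.8% occur in EIF3CL, a near-identical copy on chromosome 16, and how reads that match both genes were counted is not stated, so its level is uncertain. Adding the rows of EIF3C and EIF3CL gave a log2 fold change of -0.05. With EIF3CL at 0.064 CPM in wild-type, that sum is nearly EIF3C alone. It cannot show how reads matching both genes were counted. EIF3L has a different limit. It shares 59.7% of its windows with other genes, 44.8% with AL022311.1, which overlaps its exons on the same strand. How reads of that overlap were counted is not stated, and EIF3L was at 331 ± 9.87 and 343 ± 32.1 CPM. The order of subunits per length changed with the exon set used and is not given.

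The early factors eIF1 and eIF1A keep the scanning ribosome open, and eIF6 keeps the subunits apart. None of the 5 genes of this group passed, and all 5 intervals lay within 1.5-fold. EIF1 was at 309 ± 10.9 in R475C and 308 ± 35.5 CPM in wild-type, EIF1AX at 68.8 ± 4.10 and 72.2 ± 8.06 CPM, EIF1B at 39.4 ± 4.74 and 43.6 ± 5.20 CPM, and EIF6 at 138 ± 14.0 and 133 ± 12.7 CPM. EIF1AD, named for its eIF1A-like domain, had the smallest p of the group. It was at 36.82, 35.42, 30.04 and 28.27 CPM in R475C and from 31.77 to 42.55 CPM (median 38.45) in wild-type, overlapping (interval -0.47 to 0.01).

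eIF5 triggers GTP hydrolysis on eIF2, eIF5B joins the subunits, and eIF5A, the protein that carries hypusine, helps the ribosome past difficult peptide bonds. EIF5 was at 484 ± 75.1 in R475C and 407 ± 63.3 CPM in wild-type (interval -0.04 to 0.54), and EIF5B at 148 ± 19.2 and 147 ± 15.9 CPM. EIF5A2, the less abundant eIF5A gene, was at 40.02, 32.21, 44.32 and 21.2 CPM in R475C and from 17.65 to 35.5 CPM (median 19.68) in wild-type. R475C replicates 1 and 3 lay above all wild-type samples and replicates 2 and 4 within their range. Its log2 fold change of 0.65 (SE 0.23) was the highest of the members and did not pass (adjusted p = 0.165 by edgeR). It passed when wild-type replicate 1 was left out (0.83, adjusted p = 0.0298). EIF5A was at 367 ± 31.1 and 409 ± 36.1 CPM, with an interval from -0.35 to 0.04, and 35.1% of its windows occur in other genes, mostly EIF5AL1. The rejoining factors DENR and MCTS1, which recycle and restart the small subunit as a pair, did not pass. MCTS1 was at 39.45, 31.76, 44.87 and 26.61 CPM in R475C and from 32.13 to 49.85 CPM (median 40.31) in wild-type, overlapping (interval -0.50 to 0.20), and DENR at 98.0 ± 14.8 and 92.3 ± 11.3 CPM.

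The 3 tested members that varied most among the wild-type samples lie on the long arm of chromosome 10. EIF3A, the scaffold subunit of eIF3, EIF4EBP2, a repressor that competes with eIF4G for eIF4E, and PDCD4 had wild-type coefficients of variation of 42%, 47.8% and 46.8%. EIF3A was at 683.5 and 533.5 CPM in the wild-type and at 625.1 and 637.8 CPM in the R475C samples of set 1, and from 283.8 to 357.7 CPM in all 6 samples of set 2. EIF4EBP2 was at 309.5 to 427.4 CPM in set 1 and 137.5 to 177.4 CPM in set 2. Neither gene overlapped between the sets. The difference between the sets, averaged over the genotypes, was 1.20 on the log2 scale for EIF4EBP2, 1.01 for PDCD4, 0.95 for EIF3A and 0.32 for EIF5AL1, the fourth member on that chromosome. Of the 50 tested members on other chromosomes 1 differed by more than 0.5 in either direction (EIF5A2, 0.63), and their median was 0.11. The 12 other tested eIF3 genes lay between -0.20 and 0.24. The sets were drawn from these same expression values, so these differences are a description. In all, 6 of 54 members (11.1%) did not overlap between the sets, against 11.3% of all tested genes.

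The same shift was seen along that stretch of chromosome. The 362 tested genes of chromosome 10 from EIF4EBP2 (start 70404379) onward had a median difference between the sets of 0.94, with 82.9% of them above 0.5, against a median of -0.01 and 10.4% for genes on other chromosomes. The 224 tested genes before EIF4EBP2 had a median of 0.15, with 30.4% of them above 0.5, so some genes there differed between the sets too. DNA copy number was not measured here, and its part in these levels was not tested.

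**Figure D3:**
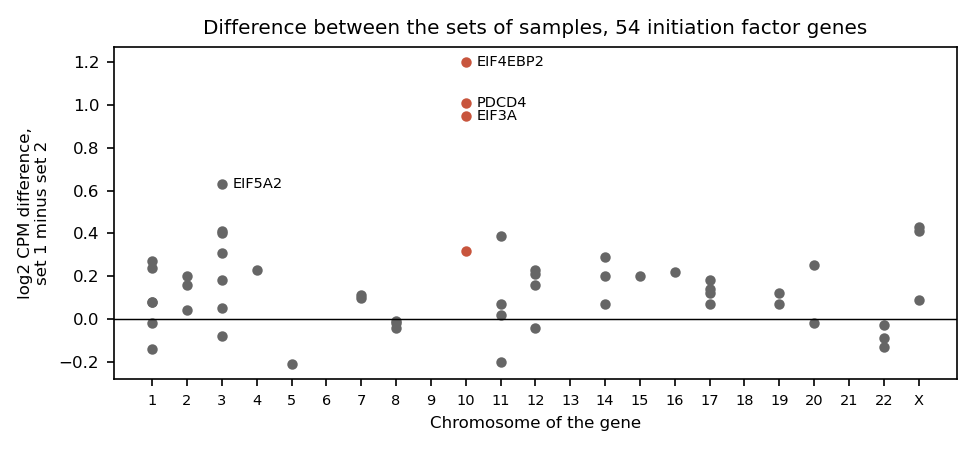
Difference in mean log2 CPM between set 1 and set 2, averaged over the genotypes (vertical axis), for the 54 tested members by chromosome (horizontal axis). EIF4EBP2, PDCD4 and EIF3A on chromosome 10 lie at 0.95 to 1.20, and EIF5A2 at 0.63 is the 1 other gene beyond 0.5.

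With the set as a covariate, a fit added with these sets already known, 5 of the 54 members (9.26%) passed the test against 6.62% of all tested genes (3.31% as higher, 3.3% as lower). EIF4G3 (log2 fold change 0.44, SE 0.09, adjusted p = 0.0104 by edgeR), EIF4A2 (0.29, SE 0.08, adjusted p = 0.0455) and EIF5A2 (0.55, SE 0.15, adjusted p = 0.0484) rose, and PDCD4 (-0.64, SE 0.12, adjusted p = 0.00966) and EIF2S2 (-0.29, SE 0.07, adjusted p = 0.0291) fell. Of these only EIF4G3 also passed without the covariate.

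PDCD4 was one of the members that passed in that fit alone. In the R475C samples it was at 99.4 and 105.6 CPM in set 1 (replicates 1 and 3) and at 54.68 and 60.08 CPM in set 2 (replicates 2 and 4). In wild-type it was at 169.3 and 193.5 CPM in set 1 and from 64.05 to 101.8 CPM in set 2. Within each set both R475C samples therefore lay below every wild-type sample, while the pooled groups overlapped (log2 fold change -0.52, SE 0.33, adjusted p = 0.457 by edgeR). Within set 1 alone the log2 fold change was -0.81 (SE 0.16, adjusted p = 0.0239) and within set 2 alone -0.51 (SE 0.17, adjusted p = 0.163). Whether the sets differ in this was not tested. PDCD4 shares 1277 bases of exon with BBIP1 on the other strand, and whether counting used strand is not stated. BBIP1 was at 21.2 ± 9.36 and 23.8 ± 11.9 CPM, and with the set as covariate edgeR gave it -0.33 on the log2 scale (SE 0.15, adjusted p = 0.212).

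Within the sets the other members kept the sign of the pooled difference as follows. EIF4G3 was at 0.40 in set 1 and 0.47 in set 2 on the log2 scale, EIF4A2 at 0.31 and 0.28, EIF5A2 at 0.57 and 0.53, and EIF2S2 at -0.27 and -0.31, none past the test within a set. EIF4E3 passed within set 1 (-1.68, SE 0.32, adjusted p = 0.0229 by edgeR) and not within set 2 (-0.72, SE 0.54). In set 1 alone 2 members passed, EIF4E3 and PDCD4, both lower, beside 1.8% of all genes tested there (1.15% as lower), and in set 2 alone none passed, beside 2.63%. EIF3A was at 0.06 and 0.21, and EIF4EBP2 at 0.26 and 0.25 (adjusted p = 0.0643 with the set as covariate).

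**Figure D4:**
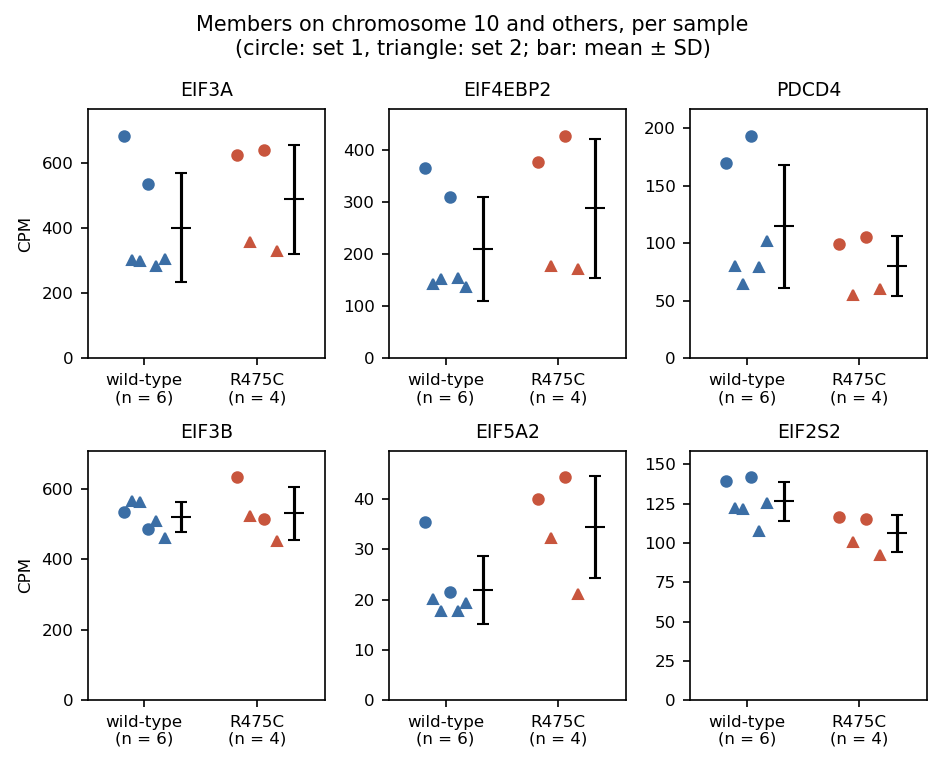
CPM per sample (vertical axis, from 0) for 3 members on chromosome 10 and for EIF3B, EIF5A2 and EIF2S2, with circles for set 1, triangles for set 2 and the mean ± SD per genotype beside them. For EIF3A and EIF4EBP2 the circles lie above all triangles in both genotypes, and for PDCD4 the R475C points lie below the wild-type points of the same shape.

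**Figure D5:**
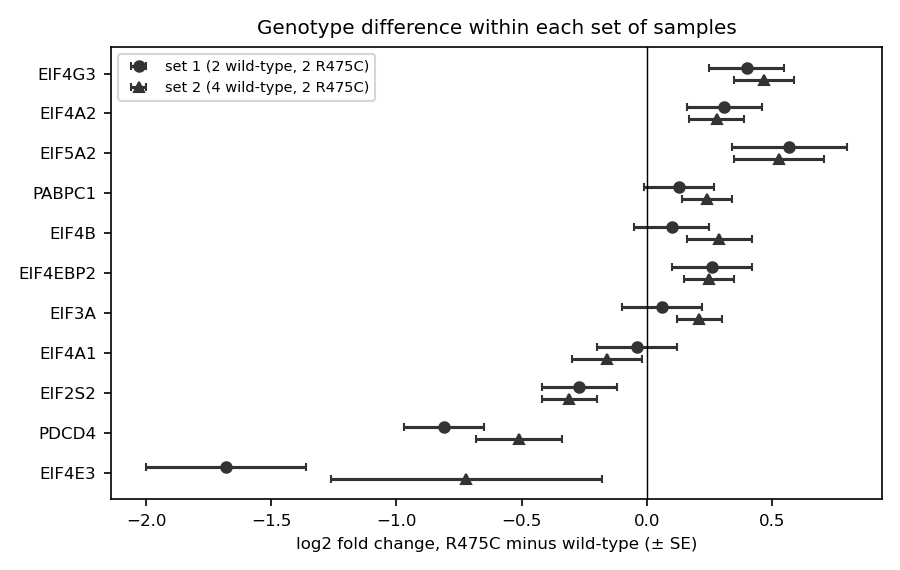
Log2 fold change, R475C minus wild-type, ± SE (horizontal axis) for 11 members fitted within set 1 (circles, 2 wild-type and 2 R475C samples) and within set 2 (triangles, 4 and 2). EIF4G3, EIF4A2 and EIF5A2 lie above 0 and EIF2S2, PDCD4 and EIF4E3 below 0 in both sets.

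The genes that act on these factors were examined as a list of 40, all of them tested, which holds the eIF2 kinases, the mTOR pathway, the eIF5A-modifying enzymes and proteins that bind the ribosome or PABPC1. Of these 1 rose, DDX3X, none fell and 39 did not pass, beside the background of 2.46%. The median log2 fold change of the list was 0.01. At an unadjusted p under 0.05 it held 6 genes above 0 and 6 below, or 12 of 40 (30%), against 17.3% of all tested genes. The list was chosen with earlier results known and includes the edited gene DDX3X, so its shares in this paragraph are a description. GCN1, which passes signals to the eIF2 kinase GCN2, was at 432.7, 454.1, 404.9 and 459.5 CPM in R475C and from 510.1 to 589.5 CPM (median 528.4) in wild-type. The groups did not overlap for GCN1, nor for DDX3X, TSC1 and the eIF2 kinase gene EIF2AK1, beside 6.11% of all tested genes. The log2 fold change of GCN1, -0.29 (SE 0.07), was just short of the test (adjusted p = 0.0577 by edgeR). That of EIF2AK1 was -0.18 (adjusted p = 0.188 by edgeR). LARP1, the repressor that binds oligopyrimidine starts, was at 516.9, 490.9, 536 and 458.2 CPM in R475C and from 390.7 to 485.5 CPM (median 397.6) in wild-type. R475C replicate 4 lay below the highest wild-type sample, and the log2 fold change of 0.28 (SE 0.08) did not pass (adjusted p = 0.108 by edgeR). For MTOR itself the log2 fold change was 0.57 (SE 0.21, adjusted p = 0.188 by edgeR). MLST8 and AKT1S1, also of the mTOR pathway, were at -0.22 and -0.21 (adjusted p = 0.283 and 0.214 by edgeR). The groups overlapped for MTOR, MLST8 and AKT1S1, and none of them passed with the set as covariate either. What these levels mean for mTOR signalling was not tested. With the set as covariate 4 of the 40 (10%) passed, against 6.62% of all tested genes. Of these 3 rose (3.31% over all genes), namely DDX3X, TSC1, an inhibitor of mTOR signalling (0.35 on the log2 scale, adjusted p = 0.0328 by edgeR), and METAP2, a methionine aminopeptidase that binds eIF2 (0.34, adjusted p = 0.0158), and GCN1 fell (-0.27, adjusted p = 0.0326, with 3.3% over all genes).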

How the data were processed

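RNA-seq of 6 wild-type and 4 R475C samples was analysed from the gene-level raw counts that the authors deposited, with groups from the sample titles. Per the submitters' processing notes, cutadapt 1.10, STAR 2.6.0c and featureCounts were used to make the counts, while their genome build, gene models and use of strand are not stated there. All 58721 row IDs matched GENCODE 29, the source of names, GRCh38 coordinates and exon overlaps. Counts were tested with edgeR 4.0.16 (filterByExpr, TMM scaling, quasi-likelihood test on genotype, two-sided), with p-values adjusted over 17045 genes. CPM used the same scaling. The edgeR test was checked on counts simulated with the means, dispersions and depths of these samples. It recovered 46% of 1.5-fold and 72% of 2-fold changes. A gene that did not pass is therefore not shown to be unchanged.

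Alternatives were DESeq2 1.42.0, limma-voom 3.58.1, RLE factors, library totals only, no low-count filter, a replicate block and leaving out each sample. The sets of samples came from clustering log2 CPM and were known from earlier results, as were the members and gene lists when they were chosen. Values per sample are given for EIF4A1, EIF4A2, EIF4E and the eIF4G genes, members with an unadjusted p under 0.05 and the member with the smallest p of each complex. Those of GCN1 and LARP1, which did not pass in the main test, are given outside this rule. EIF3A, EIF3C, EIF4EBP2 and their overlapping genes were singled out after their values were seen. Shared sequence was counted as 50-base windows of the longest coding transcript, a length chosen because read length is not stated. The lowest total, 8928539 counts, sets the precision of low genes. No pair of replicates agreed within sampling noise. The level of 1 marker gene is not reported here.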

Additional observations from a re-analysis of the deposited data

Results flagged for a closer look

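EIF4B was at 293.7 CPM in wild-type replicate 2, apart from the other wild-type samples at 364.1 to 394.9 CPM. EIF5A2 was at 35.5 CPM in wild-type replicate 1, above the other wild-type samples at 17.65 to 21.48 CPM. These 2 values came from 40 groups of samples examined with Dixon's test, where chance marks about 1 in 20 groups, so 2 of 40 is what chance gives.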

How the results depend on the processing

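Over all genes 419 passed. DESeq2 gave 1156 and the set as covariate 1128, and leaving out 1 sample gave 142 (without R475C replicate 3) to 794 (without wild-type replicate 1). RLE factors, library totals, no low-count filter, limma-voom and each set alone stayed within 1.5 times. Among the members 1 passed. The count was 0 with library totals, 0 with no low-count filter, 5 with the set as covariate, 2 in set 1 alone and 0 in set 2 alone. It ran from 0 to 2 when 1 sample was left out. The set fits were chosen after seeing the data. The deviations of same-numbered samples correlated at 0.337, 0.159, -0.269 and -0.212 for replicates 1 to 4. The same-numbered samples shared a set for replicates 1 and 2 and not for 3 and 4. The sets enter these values, so they cannot show whether the numbers pair the samples, which the labels do not say. With a replicate block 0 of 17045 genes and 0 members passed, while 1961 genes and 6 members had an unadjusted p under 0.05.

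Of 420 alternative values for 22 named genes, 393 kept their direction and side of the threshold, 14 lost the call, 7 gained one and 6 changed sign. EIF4G3 accounted for 13 of the 14 lost calls and kept its call in only 6 alternatives. The other lost call was that of DDX3X, with the replicate block. The remaining named genes had no call to lose in the main test. EIF4E was -0.08 in set 1 alone. EIF3C was 0.10 with limma-voom, 0.03 in set 2 alone and between -0.22 and 0.11 when 1 sample was left out (0.11 without R475C replicate 4, and 0.07 and 0.04 without replicates 3 and 1 of wild-type). The cause was not tested. Depth limits EIF4E3, EIF3C, EIF2S3B and EIF5AL1, which lie near or below 5 CPM.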
